A study of Harpegnathos saltator with 12 samples.

Results

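The genes described here are 58 of the 14407 genes counted in antennae of the ant Harpegnathos saltator, chosen because their levels varied together with apd-3l (LOC105189609) among ants homozygous for a mutation of orco. The deposited normalized counts of the 7 homozygote libraries, taken as log2(value + 1), chose the set, so the members were selected on measured levels. A gene had to reach a mean of 100 normalized counts and a log2 SD of 1 in these libraries, and a Pearson correlation of 0.85 with apd-3l. By level and spread 143 genes qualified, and 58 of them, apd-3l included, met the correlation. A further 5 genes were left out by name beforehand, 3 of which met the criteria. Levels and spread among the homozygotes are therefore given as a description. Heterozygotes and wild types, whose values the rule did not use, carry the test. The members were, however, chosen with earlier results of these data known.

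The libraries were made from adult antennae of 3 genotypes, 7 from orco homozygotes, 3 from orco heterozygotes and 2 from wild types. Orco is the co-receptor that odorant receptors of insects require. The homozygotes carry 2 mutant copies of orco and the heterozygotes 1, and the wild type carries none. Neither the age of the adults nor the number of ants in a library is stated in the labels, and nothing says that libraries of a genotype came from separate colonies, so p-values measure the spread between these libraries, which may be technical.

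Insect cuticle is secreted by the epidermis. It is built of chitin fibres, which a membrane-bound synthase extrudes, and of structural proteins that bind or surround them. Chitin deacetylases modify the fibres, and dopamine-derived quinones later tan the proteins. Apidermins are small hydrophobic structural proteins of the cuticle, first described in the honey bee. Cuticle is made before each moult and, in many insects, is still being deposited in the first days of adult life. The antenna is covered by it, and so are the olfactory hairs.

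Sequencing depth, as counts assigned to genes, was between 4.11 M (wild-type replicate 2) and 23.2 M (homozygote replicate 5). Orco itself was lower in all 7 homozygotes, between 143 and 1700 normalized counts, than in the heterozygotes, which had 26888, 17740.5 and 17830.0, and the wild types, which had 23957 and 29982. Homozygote replicate 1, heterozygote replicate 1 and wild-type replicate 2 were sequenced in batch 1 and the other 9 libraries in batch 2.

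All 58 genes were found in the RefSeq gene table of H. saltator (assembly Hsal_v8.6), which lists 55 as protein-coding and 3 as long non-coding RNAs. A symbol was given for 14, most of them the name of the Drosophila gene, and roles below are those known from Drosophila unless another insect is named. The symbols are apd-3l, kkv, rtv, serp, Cda4, Cda5, snsl, Cpr97Ea, conv, Cad74A, fs(1)N, b6, CTL5 and ITP. The other 44 carry only an identifier, and no role is given for them.

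The set took a large share of the counts in some homozygotes and almost none in others. The 58 genes together made up 25.8%, 0.331%, 14.2%, 0.537%, 19.8%, 9.07% and 11.2% of gene-assigned counts in homozygote replicates 1 to 7. In heterozygote replicates 1 to 3 the share was 11.0%, 4.34% and 5.02%, and in wild-type replicates 1 and 2 it was 0.0545% and 0.0402%. Homozygote replicates 2 and 4 thus lay below every heterozygote and above both wild types, while replicates 1, 3, 5 and 7 lay above every heterozygote. Apd-3l alone took between 0.170% and 11.3% in homozygotes, between 1.52% and 4.23% in heterozygotes, and 0.00294% and 0.000511% in wild types. Relative to the value, the widest Wilson 95% intervals, which cover counting error only, were those of apd-3l in the wild types, 0.00267% to 0.00323% in replicate 1 (416 counts) and 0.000334% to 0.000781% in replicate 2 (21 counts), and that of the 58 genes in wild-type replicate 2 was 0.0383% to 0.0421%.

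**Figure D1:**
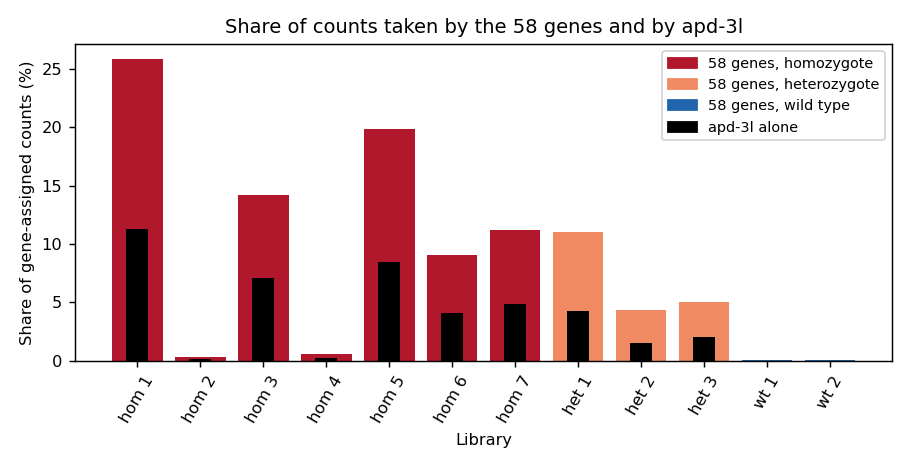
Share of gene-assigned counts (%) taken by the 58 genes (wide bars) and by apd-3l alone (narrow black bars) in each library, homozygotes (hom), heterozygotes (het) and wild types (wt) left to right. Homozygote replicates 2 and 4, at 0.331% and 0.537%, stand far below the other homozygotes, and the bars of the wild types, at 0.0545% and 0.0402%, are hardly visible.

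The members with the highest counts were apd-3l and 4 genes without a symbol. Apd-3l had 1533898, 17119.7, 807833, 22736, 1011035, 426096 and 511191 normalized counts in homozygote replicates 1 to 7, against 458656, 156263 and 193955 in heterozygote replicates 1 to 3 and 309 and 49.4 in wild-type replicates 1 and 2. LOC105189844 had 537911, 1846, 204471, 6361, 373341, 148352 and 190367 in the homozygotes, 233711, 67555 and 79916 in the heterozygotes and 119 and 14.1 in the wild types. In both genes homozygote replicates 2 and 4 were the low ones, and even these were above both wild types. LOC105189843 had 614833, 397, 144788, 1709.9, 345359, 129993 and 169859.9 normalized counts in the homozygotes, 225592, 29998 and 62369.5 in the heterozygotes and 126 and 68.3 in the wild types. LOC105189828 (a lowest of 1072, a median of 126458 and a highest of 307586 in the homozygotes) and LOC112588745 (a lowest of 1483, a median of 108953 and a highest of 381327) had the same 2 low libraries. Ranked by homozygote mean in normalized counts, which are not divided by transcript length, these 5 genes held the first 5 places of all genes. The levels were spread over a wide range, with 6 members above a homozygote mean of 10000 normalized counts, 17 between 1000 and 10000 and 35 below 1000.

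Among the homozygotes the same libraries were low in every member, which the rule favoured. Homozygote replicates 2 and 4 were the lowest 2 of the 7 libraries in 58 of 58 members, with replicate 2 lowest in 37 and replicate 4 in 21. The highest value was in replicate 1 in 33 members, in replicate 5 in 22, in replicate 3 in 2 and in replicate 7 in 1. Replicate 1, the only homozygote of batch 1, was thus at the high end, and replicates 2 and 4 shared batch 2 with replicates 3, 5, 6 and 7. The highest homozygote exceeded the lowest by between 5.95-fold and 1548-fold, with a median of 21.9-fold. The median log2 SD of the members was 1.65 in the homozygotes, beside 0.24 over all genes tested, and 0.69 in the heterozygotes, beside 0.32. In bulk antennae, more cells of a type and more RNA per cell cannot be told apart.

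The correlation with apd-3l over the 7 homozygotes was 0.95 or more in 38 members. The closest were LOC105186414 (r = 0.997), LOC105184999 (0.996), LOC105191045 (0.994), LOC105183143 (0.993) and LOC105180923 (0.992), followed by LOC105182644, LOC105182651, conv, LOC105189844 and LOC105189843 (between 0.989 and 0.991). LOC105184999 had a lowest of 67.0, a median of 2849 and a highest of 14989 normalized counts in the homozygotes, 3682, 1089.6 and 929 in the heterozygotes and 40.1 and 25.9 in the wild types. LOC105182651 had a lowest of 81.4, a median of 584 and a highest of 1131 in the homozygotes, 379, 397 and 254 in the heterozygotes and 78.7 and 49.4 in the wild types. The 2 low homozygotes of LOC105182651 were close to the wild types, and its heterozygotes lay above both. At the other end, the last members inside the correlation limit were LOC105182699 (0.858) and LOC105182697 (0.855). Just outside it stood LOC105189839 (0.844), LOC105183392 (0.842) and CSP6 (LOC105191149, 0.836), a chemosensory protein gene.

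The limit on spread cut through genes that followed apd-3l closely. Of 7823 genes with LOC identifiers and a homozygote mean of 100 normalized counts, 104 reached the correlation of 0.85 but varied by a log2 SD under 1. The nearest were CPR27 (SD 0.99, r = 0.899), a cuticle protein gene of the CPR family, and Cyp18a1 (LOC105192013, SD 0.99, r = 0.991), whose Drosophila counterpart encodes a cytochrome P450 that inactivates the moulting hormone ecdysone. They were followed by qless (LOC105190441, SD 0.96, r = 0.988). The last members inside that limit were Cda4 (SD 1.00), LOC105181072 (1.02) and LOC105191643 (1.02). In the opposite direction, 5 of the 143 genes had a correlation of -0.85 or below.

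**Figure D2:**
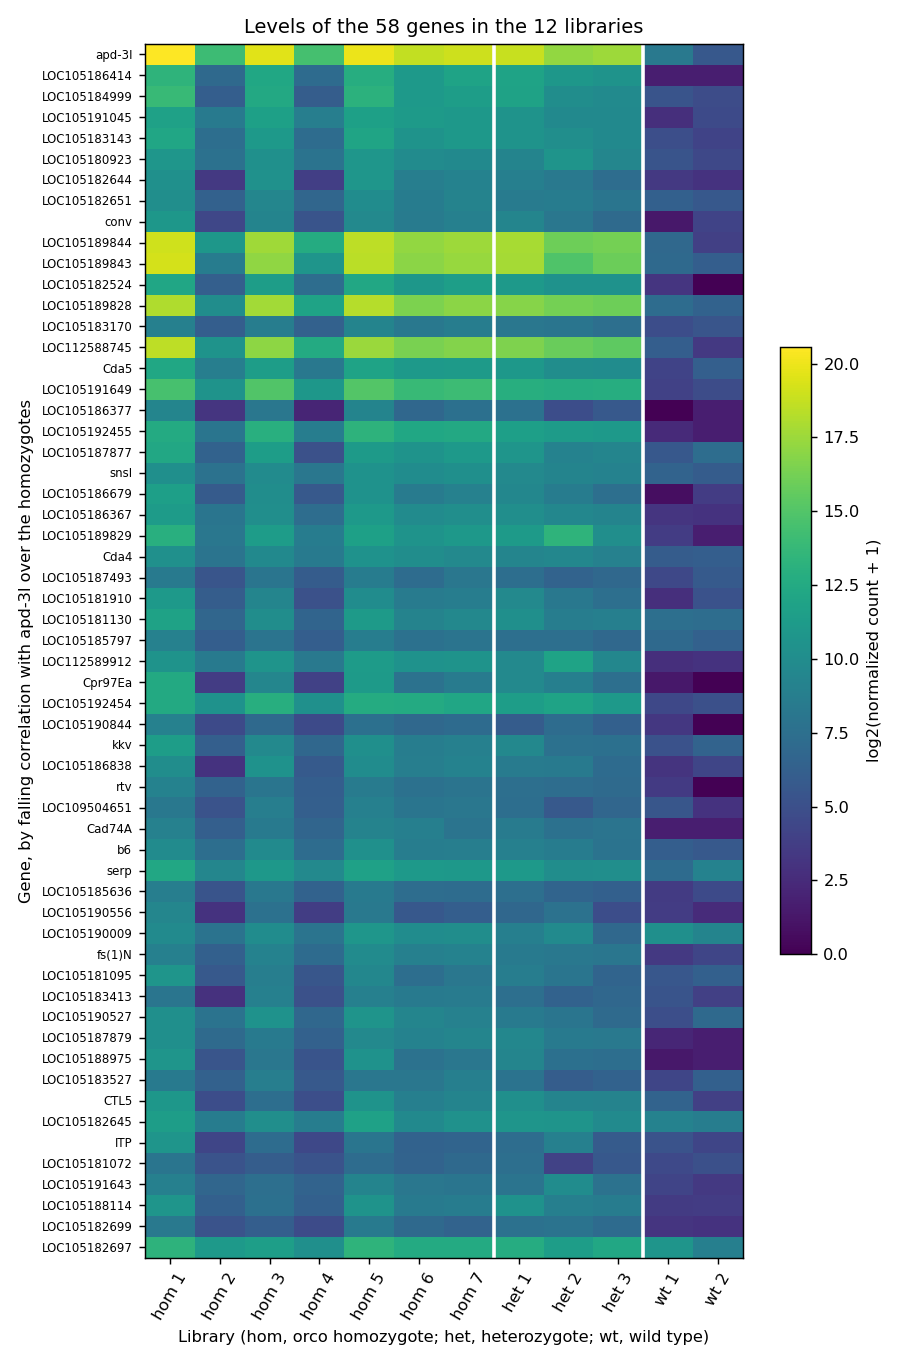
Levels of the 58 genes (rows, by falling correlation with apd-3l over the homozygotes) in the 12 libraries (columns; hom, homozygote; het, heterozygote; wt, wild type), as log2(normalized count + 1). Homozygote replicates 2 and 4 are the darkest homozygote columns in every row, and in most rows the heterozygotes lie between them and homozygote replicates 1 and 5.

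Against the heterozygotes, the homozygotes lay on both sides. The mean of the homozygotes was above that of the heterozygotes in 52 members, and homozygote replicates 1 and 5 were both above all 3 heterozygotes in 53. Yet homozygote replicates 2 and 4 were both below all 3 heterozygotes in 52, and in 0 members did all homozygotes lie above all heterozygotes. The median of the fitted log2 difference between homozygotes and heterozygotes was 0.88 (beside -0.02 over 10740 genes), and between homozygotes and wild types it was 5.16 (beside -0.06). All 7 homozygotes were above both wild types in 39 members. These values carry no test, because the homozygotes chose the members. For the counts of libraries above or below others, no share over all genes was taken, so they only describe the members.

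In libraries whose values the rule did not use, the set was higher in heterozygotes than in wild types. In edgeR's quasi-likelihood test of the 3 heterozygotes against the 2 wild types, with sequencing batch as a term, 44 of the 58 members rose and 0 fell, at an adjusted p-value under 0.05 over all 10660 genes tested. Over all these genes, 2.35% were called higher and 1.3% lower, 3.66% in either direction. At an unadjusted p-value under 0.05, 54 members were higher and 0 lower. For this comparison no share over all genes was taken at the unadjusted threshold. Such counts, here and for the lists and markers below, are therefore only a description. DESeq2 called 54 higher and 0 lower, beside 6.46% of all genes tested called higher. The median log2 fold change of the members was 4.74, beside -0.02 over all genes tested, and it was 4.60 with the 5 members that had at most 3 counts in both wild types set to their bound. The called members had log2 fold changes between 2.01 and 10.63 and adjusted p-values between 0.00176 and 0.0467. Members thus made up 17.5% of the 251 genes called higher.

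The count of calls changed with the wild types entered. Without wild-type replicate 1, 15 members were called higher, beside 31 genes (0.294%) among all tested, and the median log2 fold change was 4.83. Without wild-type replicate 2, the median log2 fold change was 4.73. Either fit has a single wild type, assumed to vary like the heterozygotes. Without wild-type replicate 2 or heterozygote replicate 1, the batch term takes up the only library left in batch 1. Both fits then rest on the same genotype comparison as batch 2 alone, with a single wild type. Counts of alternatives given below include these 3 settings separately, although they are not independent. All 3 heterozygotes lay above both wild types in 54 members (93.1%), beside 12.9% of all genes tested. Within batch 1 the single heterozygote was above the single wild type in 57 members, beside 49.4% of all genes, and within batch 2 both heterozygotes were above the wild type in 55, beside 41.9%.

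Genes that met the limits on level and spread but fell short of the correlation limit stood as follows. Some fell short narrowly, such as LOC105189839 (r = 0.844), and others ran opposite to apd-3l, such as LOC105187701 (-0.927). Of the 81 genes that qualified by level and spread but not by correlation, leaving aside those named for omission, and that were tested, 13 (16.0%) were called higher and 10 lower in heterozygotes, with a median log2 fold change of 0.78. Among all 7822 tested genes with LOC identifiers and a homozygote mean of 100 normalized counts, 2.75% were called higher.

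**Figure D3:**
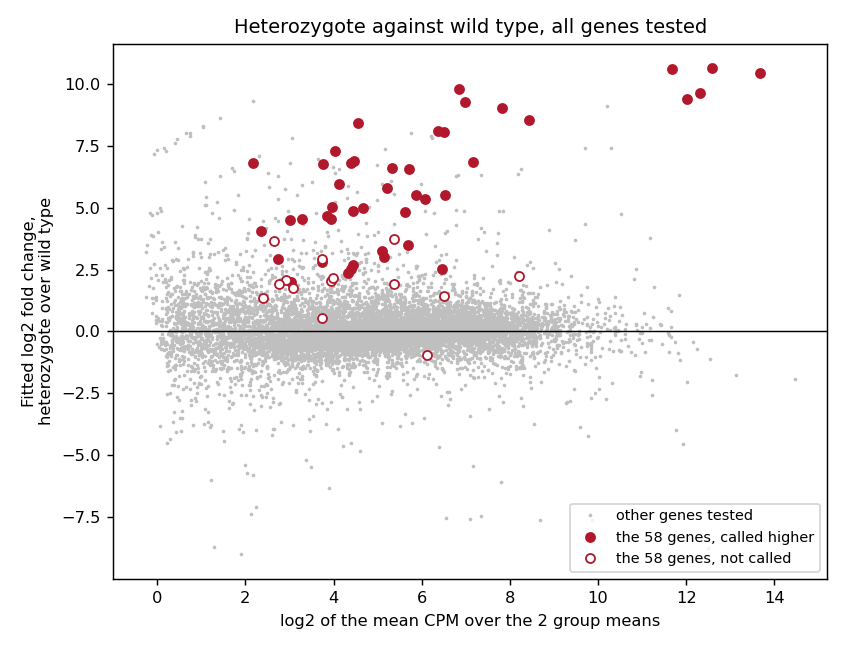
Fitted log2 fold change of heterozygote over wild type (vertical axis) against mean level in log2 CPM (horizontal axis) for the 10660 genes tested. Grey points are other genes, filled red points the 44 members called higher, and open red circles the 14 not called, of which 1 lies below 0.

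Of the most abundant members, 9 of the 10 with the highest homozygote mean rose. Apd-3l had a log2 fold change of 10.46 in heterozygotes over wild types (SE 1.49, adjusted p = 0.0212), and without wild-type replicate 1 its adjusted p-value was 0.0587. LOC105189844 (log2 fold change 10.63, SE 1.52, adjusted p = 0.0213), LOC105189843 (log2 fold change 9.62, SE 1.25, adjusted p = 0.0154) and LOC105189828 (log2 fold change 9.38, SE 0.78, adjusted p = 0.00449) were of the same order and also missed the threshold without that library, at adjusted p-values of 0.0504, 0.0751 and 0.0574. LOC112588745 had 99193, 60049 and 43956 normalized counts in the heterozygotes and 69.1 and 9.41 in the wild types (log2 fold change 10.60, SE 1.22, adjusted p = 0.0109) and was called with any single library left out. LOC105184999 (log2 fold change 5.49, SE 0.66, adjusted p = 0.0126) and LOC105192454 (log2 fold change 6.86, SE 0.49, adjusted p = 0.00315) rose as well, but missed the threshold once each, LOC105184999 in the fit of all 12 libraries (0.0856) and LOC105192454 without wild-type replicate 1 (0.0671). LOC105182697 was the exception. It had 6779, 2815 and 5163 normalized counts in the heterozygotes and 1671 and 454 in the wild types, and its log2 difference of 2.23 did not pass (adjusted p = 0.160).

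The lowest adjusted p-values fell on 6 members without a symbol. LOC105191649 had 7596, 6596 and 7053 normalized counts in the heterozygotes, a narrow range, and 14.9 and 25.9 in the wild types (log2 fold change 8.54, SE 0.45, adjusted p = 0.00176). Likewise LOC105192455 had 3141, 2465 and 2193 in the heterozygotes and 4.46 and 2.35 in the wild types (log2 fold change 9.28, SE 0.46, adjusted p = 0.00176). LOC105186414, the gene closest to apd-3l among the homozygotes, had 3843, 1833 and 1470.2 normalized counts in the heterozygotes and at most 3 raw counts in either wild type. It was at least 513-fold higher (adjusted p = 0.00176), taken against a floor of 3 counts per library. The remaining members of this group were LOC105186367 (log2 fold change 6.59, SE 0.36, adjusted p = 0.00187), LOC105191045 (log2 fold change 6.55, SE 0.40, adjusted p = 0.00272) and LOC105188975, which was at least 73.3-fold higher against that floor (adjusted p = 0.00272). All 6 were called under each of the 12 alternative settings tried, as 13 of the 58 members were. Since 3 of those settings rest on the same comparison, they are not 12 independent checks.

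Chitin synthesis was represented by kkv and rtv, and both rose in heterozygotes. Kkv (krotzkopf verkehrt), the chitin synthase of the epidermis, had 2708, 73.5, 831, 117, 1173, 407 and 486 normalized counts in homozygote replicates 1 to 7, 761, 205 and 192 in the heterozygotes and 35.6 and 91.8 in the wild types. The 2 low homozygotes lay in the range of the wild types or just above it. The heterozygotes did not overlap the wild types (log2 fold change 2.68, SE 0.29, adjusted p = 0.00942). The call for kkv was lost in 4 of 12 alternatives, among them without wild-type replicate 1 (adjusted p = 0.0587), without the batch term (0.229) and in the fit of all 12 libraries (0.0911). Rtv (retroactive), needed for chitin fibres to form properly, had a lowest of 70.4, a median of 234 and a highest of 538 in the homozygotes, 179, 165 and 138 in the heterozygotes and 10.4 and 0 in the wild types (log2 fold change 4.49, SE 0.72, adjusted p = 0.0311). Its 3 heterozygotes were close together and more than 10 times as high as either wild type, and its adjusted p-value was 0.0579 without wild-type replicate 1 and 0.0508 with no batch term.

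A group of 3 members, Cda5, Cda4 and serp, were chitin deacetylases, which remove acetyl groups from the fibres, and all 3 rose in heterozygotes. Cda5 had 4842, 449.7, 2838, 293, 3841, 2178 and 2357 normalized counts in homozygote replicates 1 to 7, 1935, 1097 and 1029 in the heterozygotes and 16.3 and 75.3 in the wild types (log2 fold change 5.36, SE 0.42, adjusted p = 0.00393). It was called under each of the 12 alternatives. Cda4 had a lowest of 235, a median of 884 and a highest of 1443 in the homozygotes, 641, 732 and 517 in the heterozygotes and 63.1 and 68.3 in the wild types (log2 fold change 3.24, SE 0.29, adjusted p = 0.00550). All of its homozygotes, the 2 low ones included, were above both wild types. Serp (serpentine), a deacetylase secreted into the cuticle and the tracheal lumen, had a lowest of 695, a median of 1958 and a highest of 5089 in the homozygotes, 2181, 1063 and 1153 in the heterozygotes and 142 and 541 in the wild types (log2 fold change 2.51, SE 0.33, adjusted p = 0.0159). Without wild-type replicate 1 the adjusted p-value was 0.0986 for Cda4 and 0.152 for serp, and without the batch term it was 0.227 for serp, whose call was lost in 3 of 12 alternatives. Snsl (snustorr snarlik), an extracellular protein that organizes chitin, had a lowest of 217, a median of 994 and a highest of 1391 normalized counts in the homozygotes, 797, 610.0 and 545 in the heterozygotes and 92.1 and 61.2 in the wild types (log2 fold change 3.01, SE 0.34, adjusted p = 0.0100). It missed the threshold without wild-type replicate 1, at an adjusted p-value of 0.0536.

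Structural and matrix genes ranged widely among the homozygotes. Cpr97Ea, a cuticle protein of the chitin-binding CPR family, had 5639, 11.5, 703, 15.04, 2302, 215 and 369 normalized counts in homozygote replicates 1 to 7, 807, 474 and 179 in the heterozygotes and 1.49 and 0 in the wild types. The highest homozygote was 489-fold above the lowest, and the heterozygotes lay between the 2 low homozygotes and the highest ones. In heterozygotes it was at least 105-fold higher than the wild-type floor (adjusted p = 0.00905, but 0.119 without wild-type replicate 1 and 0.0735 in the fit of all 12 libraries). Conv (convoluted), an extracellular leucine-rich repeat protein of the tracheal matrix, had a lowest of 19.5, a median of 483 and a highest of 1928 in the homozygotes, 648, 279 and 134 in the heterozygotes and 1.49 and 16.5 in the wild types (log2 fold change 5.95, SE 0.63, adjusted p = 0.00905). Its low homozygotes were just above the wild types, and the adjusted p-value was 0.119 without wild-type replicate 1 and 0.0790 with no batch term.

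Further called members with a symbol were Cad74A, fs(1)N and b6. Cad74A, a cadherin, had a lowest of 74.95, a median of 340.4 and a highest of 597 normalized counts in the homozygotes, 372, 208 and 245 in the heterozygotes and 2.23 and 2.35 in the wild types, where it was at the floor, and it was at least 59.2-fold higher in heterozygotes (adjusted p = 0.00274). Fs(1)N, the Drosophila Nasrat gene of the eggshell, had a lowest of 78.6, a median of 503 and a highest of 977 in the homozygotes, 354, 291 and 264 in the heterozygotes and 9.65 and 18.8 in the wild types (log2 fold change 4.55, SE 0.35, adjusted p = 0.00377), and its adjusted p-value without wild-type replicate 1 was 0.0574. The gene named b6 had 489, 386 and 232 normalized counts in the heterozygotes and 70.5 and 51.8 in the wild types (log2 fold change 2.51, SE 0.41, adjusted p = 0.0322) and kept the call in 6 of 12 alternatives. All 3 genes had heterozygotes that did not overlap the wild types.

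**Figure D4:**
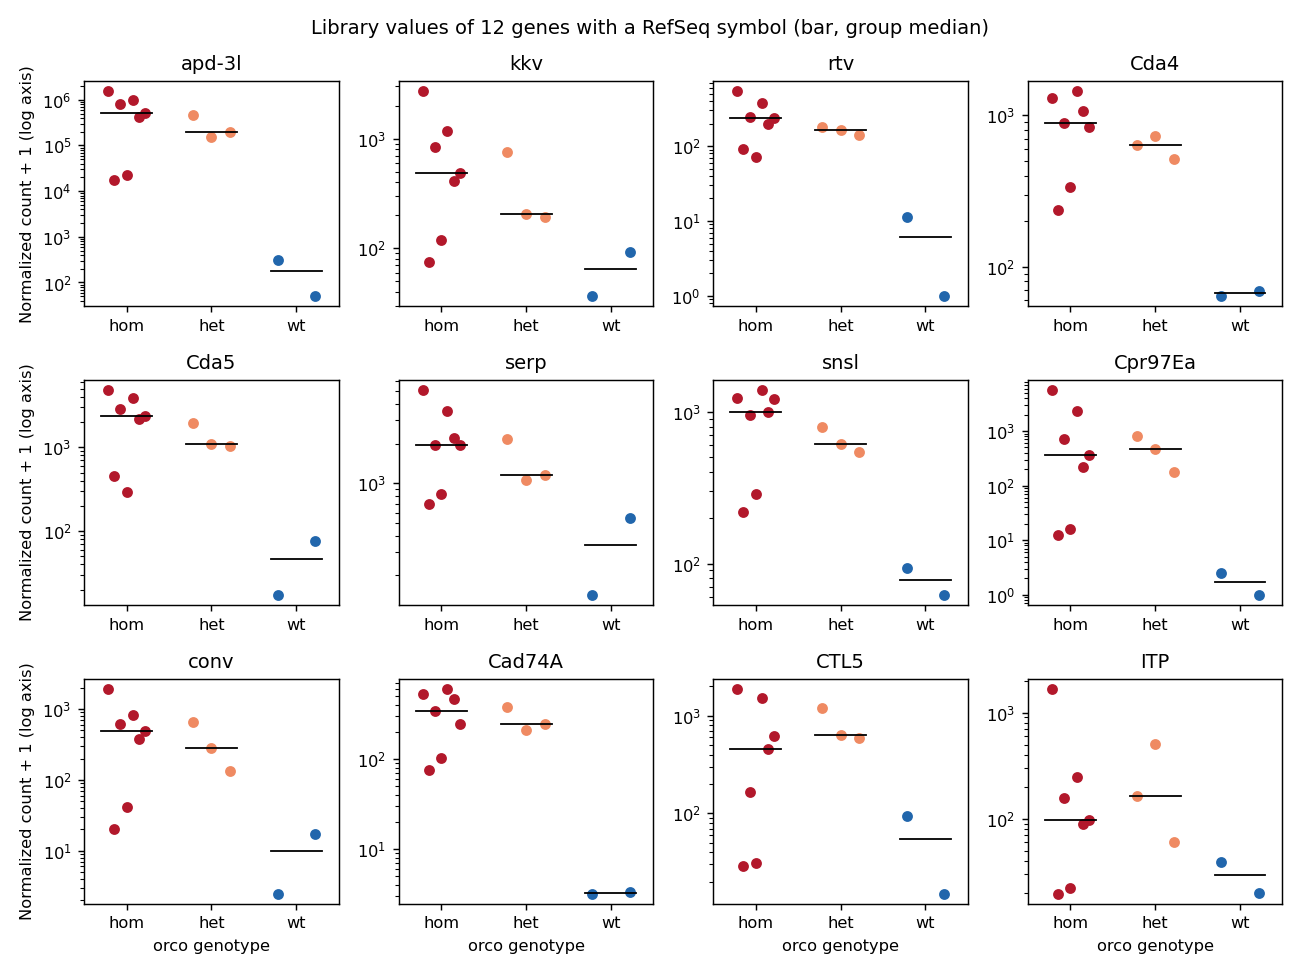
Library values of 12 members with a symbol, as normalized count + 1 on a log axis, for homozygotes (hom, 7 libraries), heterozygotes (het, 3) and wild types (wt, 2), with the median of each group as a bar. In each panel 2 homozygotes, replicates 2 and 4, stand below the 5 others. The heterozygotes lie above both wild types in all 12 panels.

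The 14 members not called had adjusted p-values between 0.0620 and 0.504, and 13 of them had positive log2 differences. CTL5, a C-type lectin gene, had a lowest of 28.1, a median of 455 and a highest of 1887 normalized counts in the homozygotes, 1186, 632 and 586 in the heterozygotes and 92.1 and 14.1 in the wild types (log2 fold change 3.73, SE 0.77, adjusted p = 0.0621), and it passed in 8 of 12 alternatives. ITP, which encodes ion transport peptide, an antidiuretic hormone of insects, had 1676, 18.7, 157, 21.2, 247, 89.0 and 96.7 in homozygote replicates 1 to 7, 162, 502 and 59.0 in the heterozygotes and 37.9 and 18.8 in the wild types (log2 fold change 2.91, SE 0.96, adjusted p = 0.174). Its homozygote replicate 1 was far above the others. LOC105190009 was the only member with a negative difference, with 467, 892 and 119.6 in the heterozygotes and 1184 and 631 in the wild types (log2 fold change -0.94, SE 0.74, adjusted p = 0.504). LOC105185797 (log2 fold change 0.55, SE 0.36, adjusted p = 0.426) was closest to no difference, and its heterozygotes, at 185, 183 and 124, overlapped the wild types, at 132 and 82.4. Of the 3 long non-coding RNAs, LOC112589912 (log2 fold change 8.05, SE 1.12, adjusted p = 0.0200) and LOC105185636 (log2 fold change 2.93, SE 0.37, adjusted p = 0.0138) rose, though without wild-type replicate 1 their adjusted p-values were 0.332 and 0.155, and LOC105181072 (log2 fold change 1.35, SE 0.70, adjusted p = 0.335) did not pass.

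The 3 heterozygotes did not stand in the order of apd-3l in most members. In heterozygotes the highest value was in replicate 1 in 46 members, in replicate 2 in 12 and in replicate 3 in 0, beside 40.6%, 34.7% and 24.8% of all genes tested. The lowest value was in replicate 3 in 41 members, for which no share over all genes was taken. The full order of apd-3l, with replicate 1 above replicate 3 above replicate 2, was found in 14 of the 57 other members (24.6%), beside 24.2% of all genes tested. Heterozygote replicate 2 was the high library of LOC105189829 (2329, 10317 and 1116), LOC112589912 (825, 3921 and 744), LOC105191643 (239, 1036 and 217) and LOC105180923 (629.8, 1596 and 693). Between the wild types, 32 members were higher in replicate 1 and 26 in replicate 2, beside 51.4% of all genes tested higher in replicate 1. Heterozygote replicate 1 was the only heterozygote of batch 1. For the batch term of the 5 libraries edgeR called 0 members and 0 of the 10660 genes, with 17 members and 2863 genes at an unadjusted p-value under 0.05, and its part in the order was not tested further.

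The wider cuticle pathway was read from lists drawn up by gene symbol with these values known, so counts of calls in them are a description. Over all genes tested, edgeR called 2.35% higher and 1.3% lower. Of 12 tested genes of chitin synthesis and modification, 7 rose in heterozygotes, 0 fell and 5 did not pass. At an unadjusted p-value under 0.05 there were 8, and DESeq2 called 7 higher and 0 lower. The 7 were the members kkv, rtv, Cda4, Cda5, serp and snsl and the deacetylase verm (vermiform), which is no member. The calls of these 6 members are the ones already given above. Among the 6 genes of the list that are no members, 1 rose, and their median log2 fold change was -0.06. Verm had 11081, 2156, 5106, 2055, 9133, 5380.1 and 4619 normalized counts in homozygote replicates 1 to 7, 3956, 3158 and 2701 in the heterozygotes and 33.4 and 54.1 in the wild types (log2 fold change 6.31, SE 0.35, adjusted p = 0.00187). It followed apd-3l (r = 0.942) but its log2 SD was 0.93, under the limit. Of this list, only Cda5 and verm were called without wild-type replicate 1.

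Enzymes upstream of the synthase did not pass. Mmy, which makes the UDP-N-acetylglucosamine that the synthase uses, had a lowest of 451, a median of 495 and a highest of 557 normalized counts in the homozygotes, 489, 506 and 505 in the heterozygotes and 448 and 518 in the wild types (log2 difference 0.03, adjusted p = 0.947). Its 7 homozygotes were nearly level, with a log2 SD of 0.09. The other genes not called were Gfat2, at the entry of the hexosamine pathway (-0.15), Gnpnat (-0.35), Nagk (-0.60) and Hexo1, a hexosaminidase (0.53), all as log2 differences of heterozygotes over wild types.

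The CPR family of cuticle proteins held genes that followed apd-3l among the homozygotes and genes that did so less closely. Among 11 tested genes of the CPR family, 4 rose (the member Cpr97Ea, CPR6, CPR27 and CPR28) and 1 fell, with 8 at an unadjusted p-value under 0.05, and DESeq2 called 5 higher and 2 lower. CPR6 had 2638, 1586, 1432, 1538, 4179, 1846 and 1729 normalized counts in homozygote replicates 1 to 7, 2067, 1574 and 1695 in the heterozygotes and 95.04 and 139 in the wild types (log2 fold change 3.98, SE 0.28, adjusted p = 0.00315). Its homozygote replicates 2 and 4 were within the range of the others, and its correlation with apd-3l was 0.531. CPR28 (log2 fold change 2.67, SE 0.43, adjusted p = 0.0302) had a lowest of 6168, a median of 8350.0 and a highest of 13105 in the homozygotes, a correlation with apd-3l of 0.605. CPR27 (log2 fold change 5.64, SE 0.70, adjusted p = 0.0138), just outside the limit on spread with a correlation of 0.899, had a lowest of 80.0, a median of 250.4 and a highest of 610.2. CPR3 fell, with 18.0, 17.7 and 15.6 in the heterozygotes and 69.1 and 70.6 in the wild types (log2 fold change -2.05, SE 0.38, adjusted p = 0.0455), a call lost in every fit with a library left out.

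Of 8 tested tanning genes, 3 rose and 0 fell, with 5 at an unadjusted p-value under 0.05, and DESeq2 called 3 higher and 0 lower. Ple, the tyrosine hydroxylase at the head of the pathway, had 29986, 54411, 51778, 55842, 30776, 76412 and 47826 normalized counts in homozygote replicates 1 to 7, 22142, 59464 and 50314 in the heterozygotes and 4146 and 1466 in the wild types (log2 fold change 3.77, SE 0.44, adjusted p = 0.0112). Its lowest homozygotes were replicates 1 and 5, not 2 and 4, and its correlation with apd-3l was -0.494. Black, which makes the β-alanine used in tanning, and yellow-b had log2 fold changes of 3.72 (SE 0.39, adjusted p = 0.00905) and 3.58 (SE 0.36, adjusted p = 0.00799). Without wild-type replicate 1, none of the genes of the CPR and tanning lists was called by edgeR. The 6 genes of the apical matrix (pio, neo, tyn, dyl, dpy and pot), which lies between the epidermis and the cuticle, gave 0 calls with edgeR, 3 at an unadjusted p-value under 0.05 and 2 higher by DESeq2.

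Among 7 tested nuclear receptors of the moulting cascade, Hr4 rose (log2 fold change 1.49, SE 0.28, adjusted p = 0.0467) and 0 fell, with 4 at an unadjusted p-value under 0.05, DESeq2 called 2 higher and 0 lower, and Hr4 was not called in any fit with a library left out. Ftz-f1, a receptor that acts late in the moulting cycle, varied with apd-3l among the homozygotes (r = 0.965) within a narrower range (log2 SD 0.49). It was the exception, as the other listed receptors had correlations with apd-3l between 0.044 (Ecr) and 0.580 (Hr3). Ftz-f1 had 4909, 2018, 3880.5, 1975, 3682, 2961 and 3397 normalized counts in homozygote replicates 1 to 7, 4520.2, 2944 and 2517 in the heterozygotes and 1324 and 3069 in the wild types. Replicates 2 and 4 were again the lowest homozygotes, and the heterozygotes overlapped the wild types (log2 difference 0.80, adjusted p = 0.200).

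**Figure D5:**
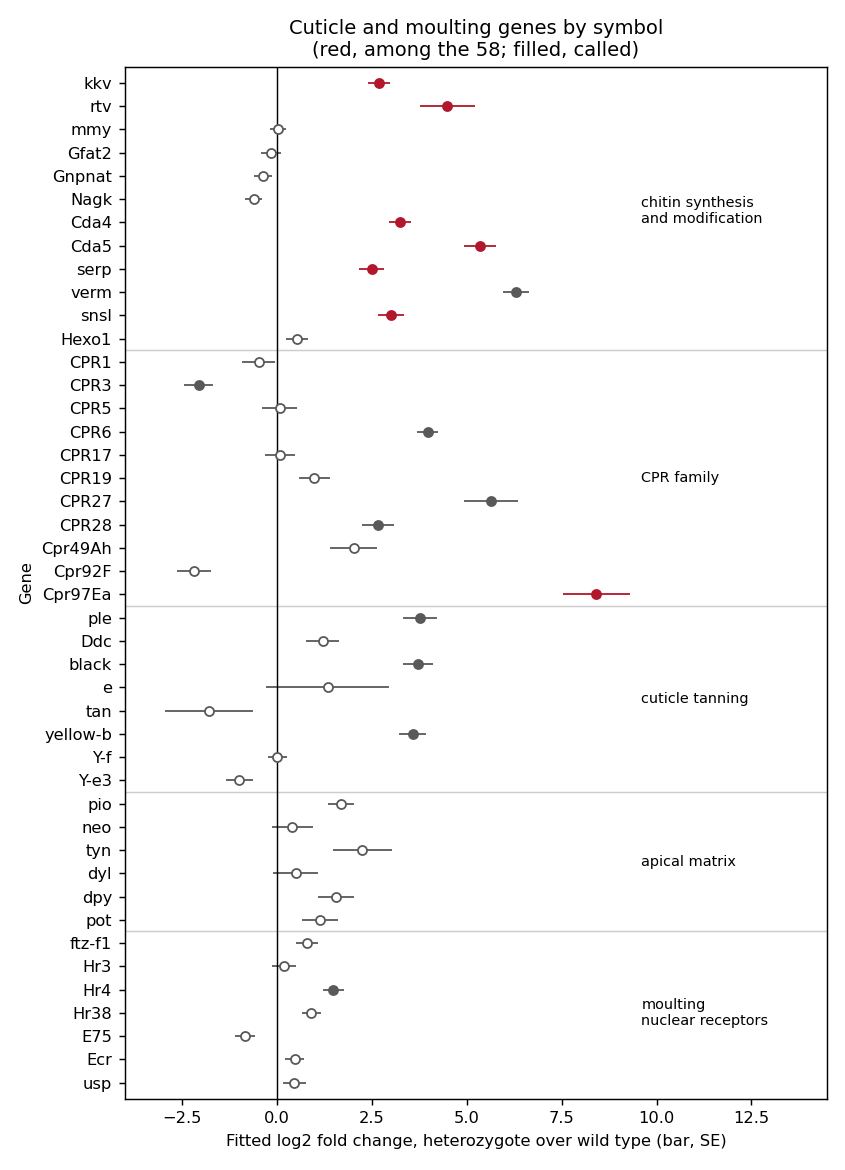
Fitted log2 fold change of heterozygote over wild type with its SE (horizontal axis) for the tested genes of 5 lists of cuticle and moulting genes (rows). Red marks genes among the 58 and filled symbols mark genes that passed the test. The red genes lie between 2.51 and 8.42, and mmy, Gfat2, Gnpnat and Nagk lie between -0.60 and 0.03.

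Members often lay near each other in the RefSeq gene table, which gives gene starts but does not name the scaffold, so scaffolds were taken as blocks of ascending starts and a pair across 2 scaffolds would not be told apart. Of the 55 protein-coding members, 22 (40.0%) had another member within 5 protein-coding genes in this order, beside 3.48% of all 12658 protein-coding genes with a member that near. Among protein-coding genes, adjacent members made up 6 pairs and no longer run. These were LOC105189828 with LOC105189829, LOC105189843 with LOC105189844, LOC105186414 with LOC105186367, rtv with LOC105183143, LOC105182645 with LOC105182644, and LOC105182697 with LOC105182699. The pairs LOC105189828 with LOC105189829 and LOC105189843 with LOC105189844 stood within 5 genes of each other. With non-coding genes counted as well, apd-3l was followed by LOC105185636, one of the 3 long non-coding RNAs, and LOC105189828 was no longer next to LOC105189829. LOC105186414 and LOC105186367 overlapped in the annotation. Levels within a pair could be far apart, as in LOC105189828 (114105, 78000.3 and 64593 normalized counts in heterozygotes) and LOC105189829 (2329, 10317 and 1116). Neighbouring genes can be near-identical copies, and only reads with a single best place were counted, so levels within a pair are uncertain. The libraries carried no strand information, so reads of overlapping and antisense genes were not separated.

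Markers of antennal cell types were read beside these results. Of 14 marker genes, edgeR called 0 higher and 0 lower in heterozygotes over wild types, with 5 at an unadjusted p-value under 0.05, and DESeq2 called 2 higher and 1 lower. Over all genes tested, edgeR called 3.66% in either direction and DESeq2 6.46% higher. Beside that edgeR share, 0 calls among 14 genes tell little about the markers. Homozygote replicates 2 and 4 lay within the range of the 5 other homozygotes for 10 of the 14, the exceptions being nompC, repo, LOC105182650 and grh. No share over all genes was taken for this range, so the count only describes the markers. Grh (grainy head), a transcription factor of the epidermis that secretes cuticle, had 420.1, 718, 689.5, 510.0, 523, 471 and 235 normalized counts in homozygote replicates 1 to 7, 179, 289 and 189 in the heterozygotes and 55.7 and 678 in the wild types. Replicate 2, low for the 58 genes, held its highest homozygote value. The 2 wild types were far apart for grh, and all heterozygotes lay between them. Mhc, the muscle myosin heavy chain, had 94343, 63415, 58767, 37744, 33655, 56637 and 85121 in homozygote replicates 1 to 7, 50741, 6406 and 35756 in the heterozygotes and 2952 and 11401 in the wild types (log2 fold change 2.51, SE 0.82, adjusted p = 0.172). The share of muscle or epidermis in each antennal sample, and its part in the levels of the 58 genes, was not tested.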

How the data were processed

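RNA was extracted from adult antennae, and poly(A) libraries were made with the NEBNext Ultra II kit from 110 ng of RNA with 12 PCR cycles. The authors aligned reads with STAR 2.6.1d and deposited a raw count per gene and library, together with a table of normalized counts (a signal) that they scaled with DESeq2 1.34.0. Within a library the 2 tables differed only by 1 factor, which lay between 0.514 and 2.40. Lines that name no gene (unmapped, multimapping, outside genes and ambiguous) held 1.92% to 6.53%, 1.69% to 2.79%, 13.0% to 18.3% and 2.29% to 4.23% of counted reads and were left out. The first strand column held 50.0% to 50.6% of stranded counts, so the unstranded column was used. Read trimming is not given in the sources used here. One count was the smallest step, and a floor of 3 counts, 1.54 to 7.20 normalized counts, covers counting error only.

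The rule was applied to the normalized counts with a pseudocount of 1. The raw counts of the 3 heterozygotes and 2 wild types were tested in R 4.3.3 with the quasi-likelihood test of edgeR 4.0.16 (with limma 3.58.1), TMM scaling, genotype and batch as terms, a mean count of at least 10 and Benjamini-Hochberg adjustment over all genes tested. The homozygotes stayed out of that fit, since the rule asks for spread among them. The SE was derived from the log2 fold change and the F statistic. Differences involving homozygotes come from a fit of all 12 libraries and carry no p-value. The fit was also run on simulated counts with a single fixed dispersion and no batch effect. Those settings are simpler than these data, so that run says little about the calls given here. Alternatives included DESeq2 1.42.0, library totals, no minimum, no batch term, batch 2 alone, a replicate block and each library left out. Tables and counts were handled with Python 3.11.15 (pandas 2.3.3, numpy 2.4.6).

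The members and the lists were chosen with earlier results of these data known. Named were apd-3l, the 10 members closest to it, the 10 with the highest homozygote mean, the 6 with the lowest adjusted p-value, those at the edges of the rule and the 14 cell type markers. Groups by product name could not be formed, because the RefSeq table used here gives symbols and no product names, so the members with a symbol were named in their place. Other genes named were chosen after their values were seen. Gene order was taken from the starts in the RefSeq table (Hsal_v8.6). Sequences were not used here.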

Additional observations from a re-analysis of the deposited data

Results flagged for a closer look

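For 109 genes (the 58 members, the other tested genes of the cuticle and moulting lists and the 14 markers), on the log2(normalized count + 1) scale, the 7 homozygotes were searched for a library that stood apart, by a gap to its nearest neighbour beyond Dixon's 95% critical value, as a fraction of the whole range. Chance gives such a gap in about 1 of 20 groups, and 8 of the 109 genes had one, none of them among the 58. The 58 were chosen to follow apd-3l, which has no such gap, so the rule made a gap in them unlikely. The 8 genes all lay outside the 58, so 8 of 109 cannot be compared with 1 of 20. In 7 of the 8 the library was homozygote replicate 1, the only homozygote of batch 1, and it was the highest. It held 6270 normalized counts of fne, a neuronal RNA-binding protein gene (the other 6 between 2168 and 3137), and 552 of sv, a support cell gene (206 to 297). It held 1784 of Gfat2 (546 to 823), 55.2 of CPR1 (21.6 to 31.9), 226 of tan (41.0 to 66.7), 55.2 of dyl (10.6 to 20.2) and 1923 of Hr3 (578 to 919.9). The remaining case was Ecr, the ecdysone receptor gene, in homozygote replicate 7, which was low at 1013 normalized counts (1300.4 to 1496 in the others).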

How the results depend on the processing

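Of the 58 members, 44 were called higher in heterozygotes over wild types, and with 1 library left out the number ran between 15 (without wild-type replicate 1) and 46. It was 42 with library totals, beside 1.86% of all genes tested called higher, 46 without the count minimum (beside 2.29%) and 33 without the batch term (1.36%). In a fit of all 12 libraries it was 33 (beside 9.71%), and with DESeq2 it was 54 (6.46%). With batch 2 alone, which holds a single wild type, the median log2 fold change of the members was 4.69. It was 4.69 without heterozygote replicate 1 and 4.73 without wild-type replicate 2. With the batch term, those fits rest on the same comparison, so counts over the alternatives include it more than once. In an alternative chosen after seeing the data, 25 of the 38 members with a mean of at least 10 wild-type counts were called, a subset set by 1 side of the comparison. No share over all genes under that limit was taken, so this count only describes the members. Whether the labels' replicate numbers pair the libraries cannot be told. Same-numbered heterozygotes and wild types sat in opposite batches and deviated from their group means with correlations of -0.56 and -0.42. The deviations of 2 wild types mirror each other, and batch enters both correlations, so these cannot decide it. With the replicate number as a block, 39 members were called, beside 1.48% of all genes tested called higher. In that fit 7 calls were lost, kkv (adjusted p = 0.153), serp (0.243) and b6 (0.0734) among them, and 2 were gained. The median log2 fold change of the members lay between 4.47 and 4.96 with 1 library left out. For the homozygotes it lay between 0.57 and 1.06 against heterozygotes and between 4.94 and 6.12 against wild types. Among 384 values of the 32 members named by the rule under the alternatives, 334 stayed on their side of the threshold, 38 lost the call, 18 of them without wild-type replicate 1, and 12 gained it, with no change of direction. The number of genes meeting the rule was 64 at a correlation of 0.80, 52 at 0.90, 63 with Spearman's rho, 53 with a pseudocount of 10, 44 on CPM from library totals, 53 on TMM CPM and 52 in batch 2 alone, and it ran between 46 and 78 with 1 homozygote left out.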
